A study of Homo sapiens with 20 samples.

Results

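The subject is a small group of guide RNA sets whose abundance was higher at day 14 than at day 0 in HAP1 cells. In HEK293FT cells their change only had to lie above a limit below 0, so some were lower there at day 14. Guides are numbered in the tables, and consecutive numbers fall into sets of 4. A set's change was the mean over its guides of log2 abundance at day 14 less that at day 0, relative to the non-targeting guides of the same library. A set was included when its change was above 0.5 in HAP1 and above -0.35 in HEK293FT. Of 4174 sets with at least 3 guides in each table, 24 met this rule (0.575%), and they hold 96 of the 16691 targeting guides of the HAP1 table. The rule itself used the day 14 and day 0 values of both lines, so everything that follows from those values is a description and carries no test.

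The study placed a nuclear RfxCas13d under doxycycline control in each cell line and delivered the same lentiviral guide library to both. HAP1 is a near-haploid human line derived from a chronic myelogenous leukaemia, and HEK293FT is a human embryonic kidney line that carries the large T antigen of SV40. The 8 libraries used here were amplified from genomic DNA of cells harvested at day 0 or at day 14 of induction with 1 µg/ml doxycycline, with 2 libraries per line and day from separate infections. All groups carry the same nuclease, so the non-targeting guides, 999 in the HAP1 table and 1000 in the HEK293FT table, are the only internal reference. Whether the engineered lines were single clones is not given in the sources used here.

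Cas13d is an RNA-guided ribonuclease: its guide pairs with a transcript, and the enzyme then cuts that RNA and leaves the genomic DNA intact. In a pooled fitness screen the guide cassette integrated in the genome serves as a barcode for the cells that carry it. A guide that becomes rarer marks cells that were outgrown by the rest of the pool, and a guide that becomes more abundant marks cells that gained on the pool. Enriched guides are the rarer outcome in such screens, since most transcripts that matter for growth promote it. The tables give no guide sequence and no gene name, so the 24 sets are named here by the numbers of their guides, and no target is known for any of them. That the 4 guides of a set share a target is not stated in the sources used here.

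Values are normalised abundances (signal) as the authors deposited them, on a scale where the median non-targeting guide lay between 428 and 436 and the median targeting guide between 108 and 134 in the 8 libraries. The number of reads behind a value is unknown. The level of a guide reflects its share in the plasmid pool as well as its history in the cells, so ranks and classes of level describe the libraries only, and changes are taken within a guide or set. Changes are given with their SE from the 2 libraries of each day and with whether the days overlapped, and no p is given because the sets were chosen on these changes. Over the 24 sets the median HAP1 change was 0.93 between the replicate 1 libraries and 0.59 between the replicate 2 libraries. Over all 4174 sets these medians were 0.044 and 0.0090. Equal replicate numbers were not taken to mark pairs of libraries. Leaving out HAP1 day 0 replicate 2 or HAP1 day 14 replicate 2 raised the number of sets that met the rule from 24 to 53 in either case, of which 22 were among the 24. Without HAP1 day 0 replicate 1 the number was 21, of which 18 were among the 24. Without HAP1 day 14 replicate 1 it was again 24, but 16 of them were the same sets.

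The HAP1 changes of the 24 sets ran from 0.50 to 1.29 on the log2 scale, with a median of 0.66, while the median of all sets was 0.039. A change of at least 1, that is a doubling, was found in 4 of the sets, 10 lay between 0.6 and 1, and 10 lay below 0.6. No set of the library was above 0.5 in HEK293FT, where the highest of all set changes was 0.41. Gains above 0.5 in HAP1 were much rarer than losses, since 446 sets lay below -0.5. The same rule applied to 250 sets formed from consecutive non-targeting guides included 0 of them, and their HAP1 changes ran from -0.45 to 0.35. With only 250 sets, a share as small as that of the targeting sets could also give 0. Non-targeting guides also set the scale and had a far higher median signal than targeting guides, so they are not a matched background. In all 24 sets both HAP1 day 14 libraries lay above both day 0 libraries, which was also so for 31.9% of all sets. This separation largely follows from the choice of sets and is not a separate result.

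The 96 guides together made up 0.665% and 0.676% of the targeting signal in the HAP1 day 0 libraries and 1.23% and 1.16% in the day 14 libraries. In HEK293FT the same guides held 0.605% and 0.607% at day 0 and 0.628% and 0.637% at day 14. Their summed signal there did not rise, at 17339 and 17349 at day 0 and 16944 and 17157 at day 14. Both HAP1 day 14 shares were far above those of day 0, which largely follows from the choice of sets. The HEK293FT shares of the days differed little. Sums of signal give more weight to guides of high abundance.

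The largest change belonged to the set of gID_12221 to gID_12224, at 1.29 ± 0.24 (SE, n = 2 per day). Its mean signal was 101 and 129 in the HAP1 day 0 libraries and 316 and 252 at day 14, and in HEK293FT it was 109 and 114 at day 0 and 91.0 and 108 at day 14. Both day 14 libraries of HAP1 stood well clear of day 0, and both of HEK293FT lay below theirs. Within it gID_12222 went from 88.5 and 121 at day 0 to 371 and 328 at day 14, a change of 1.75. The first guide, gID_12221, went from 89.2 and 143 to 434 and 323, a change of 1.72. The fourth guide, gID_12224, behaved differently, at 118 and 164 and then 252 and 138, so that its day 14 libraries straddled the higher day 0 value. The SD among the 4 guide changes, 0.62, was the widest of the 24 sets.

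The set of gID_09765 to gID_09768 combined a large change with high abundance. Its mean signal was 579 and 481 at HAP1 day 0 and 1211 and 1236 at day 14, a change of 1.21 ± 0.13 (SE, n = 2 per day). In HEK293FT the set stood at 451 and 475 at day 0 and at 393 and 403 at day 14, a change of -0.22 ± 0.038 (SE, n = 2 per day). All 4 of its guides more than doubled in HAP1, with changes of 1.40, 1.27, 1.15 and 1.01 in the order of their numbers. The guide gID_09766 reached 1635 and 1604 at day 14 from 658 and 682 at day 0, and gID_09767 reached 1365 and 1448 from 691 and 577. They ranked 2 and 3 among all guides of the HAP1 table by mean signal at day 14, and gID_09768 ranked 7. In HEK293FT the 4 guides diverged: gID_09766 was at 0.19, and gID_09768 at -0.68, from 435 and 469 to 285 and 276.

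Directly before it in number stands another of the 24 sets, gID_09761 to gID_09764, at 0.96 ± 0.066 (SE, n = 2 per day). Its signal was 112 and 122 at HAP1 day 0 and 226 and 231 at day 14, with close agreement between the libraries of a day. In HEK293FT it went from 158 and 143 to 149 and 157, a change of 0.034, and the days overlapped. The gain was concentrated in its first 2 guides, gID_09761 at 1.51 and gID_09762 at 1.44, while gID_09763 was at 0.57 and gID_09764 at 0.31. HAP1 changes also fell along the guide numbers in 78.6% of all sets. The only other neighbouring pair among the 24 sets was gID_01445 to gID_01448 and gID_01449 to gID_01452. The former changed from 119 and 127 to 198 and 187 in HAP1, a difference of 0.64 ± 0.064 (SE, n = 2 per day). The latter went from 128 and 139 to 251 and 216, a difference of 0.80 ± 0.12 (SE, n = 2 per day). In HEK293FT these sets were at -0.045 and -0.052. Neighbours in number were otherwise not high: the 44 other sets next to one of the 24 had a median HAP1 change of -0.086 and a highest value of 0.32.

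A further pair of sets at least doubled. The set of gID_13853 to gID_13856 went from 107 and 112 at HAP1 day 0 to 251 and 218 at day 14, a change of 1.09 ± 0.11 (SE, n = 2 per day). The lowest of its guides was at 0.86, so the gain was spread over the whole set. In HEK293FT its signal was 116 and 126 at day 0 and 96.1 and 107 at day 14, a change of -0.25 that came mostly from gID_13853 at -0.62. The set of gID_07233 to gID_07236 went from 77.6 and 81.0 to 179 and 147 in HAP1, a change of 1.03 ± 0.15 (SE, n = 2 per day), and stood at -0.018 in HEK293FT. Its first guide had the largest change of the 96 guides, at 1.87, from 33.5 and 49.5 to 171 and 131. The other 3 guides were at 1.02, 0.71 and 0.51. A fall along the guide numbers was not particular to this set, since 78.6% of all sets had it in HAP1.

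Next in size came 2 sets that were also somewhat higher in HEK293FT at day 14. The set of gID_06585 to gID_06588 had a HAP1 change of 0.90 ± 0.28 (SE, n = 2 per day), with signals of 99.2 and 124 at day 0 and 243 and 179 at day 14. Its day 14 libraries differed more than those of any set named so far. Its HEK293FT change of 0.20 ± 0.034 (SE, n = 2 per day) was the highest of the 24 sets and above 98.6% of all sets of the library or equal to them. The set of gID_08985 to gID_08988 was the most even of the low-abundance sets among the 24. Its guide changes were 1.03, 0.89, 0.88 and 0.74, with an SD of 0.12. It went from 110.4 and 115 to 227 and 193 in HAP1, a change of 0.89 ± 0.12 (SE, n = 2 per day), and from 133 and 137 to 151 and 142 in HEK293FT, a change of 0.11.

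The last of the 10 largest changes were those of gID_08629 to gID_08632 and gID_13449 to gID_13452. The former went from 92.5 and 121 to 203 and 155 in HAP1, a change of 0.74 ± 0.28 (SE, n = 2 per day), and was at -0.058 in HEK293FT. The latter went from 90.8 and 97.1 to 163 and 148, a change of 0.72 ± 0.085 (SE, n = 2 per day). It was also higher at day 14 in HEK293FT, at 134 and 119 against 117 and 111, a change of 0.15.

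Of the 24 sets, 4 belonged to a high-abundance class. Day 0 set means in HAP1 fell into 2 separate ranges, up to 231 and from 263 upwards, and the 503 sets of the upper range had levels like those of the non-targeting guides. The share of this class was 16.7% among the 24 sets and 12.1% among all sets. Beside gID_09765 to gID_09768 it held gID_02405 to gID_02408 at 0.63 ± 0.045, gID_00905 to gID_00908 at 0.69 ± 0.080 and gID_12169 to gID_12172 at 0.59 ± 0.096 (SE, n = 2 per day). The median SE of the HAP1 change was 0.088 over these 4 sets and 0.12 over the 20 others. Of their 16 guides, 11 were among the 100 most abundant HAP1 guides at day 14, as were 90 of the 16691 targeting guides (0.539%). The day 14 level enters the rule, and the class was defined by abundance, so nothing is read from this count. The set of gID_02405 to gID_02408 had the highest day 0 signal of the 24, at 582 and 567, and reached 922 and 866 at day 14. In HEK293FT it was higher too, at 502 and 501 against 464 and 444, mostly through gID_02405, which went from 444 and 456 to 733 and 532 there. The set of gID_12169 to gID_12172 differed inside: 3 of its guides were at 0.99, 0.75 and 0.60, whereas gID_12172 stood at 811 and 701 at day 0 and at 744 and 795 at day 14, a change of 0.022.

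The set of gID_00905 to gID_00908 was the most uniform of the 24 in HAP1, with guide changes of 0.80, 0.71, 0.64 and 0.59. Its signal went from 356 and 391 to 589 and 615. In HEK293FT the same set was lowest of the 24, at -0.26 ± 0.24 (SE, n = 2 per day), and its libraries disagreed, with 402 and 342 at day 0 and 270.3 and 356 at day 14. Most of the mean loss came from gID_00906, which went from 361 and 390.0 to 183 and 251. Its change of -0.81 was the lowest HEK293FT value of the 96 guides. Within the set the libraries disagreed most at gID_00908, with 460 and 265 at day 0 and 287 and 409 at day 14. This set no longer met the rule when HEK293FT day 0 replicate 2 or HEK293FT day 14 replicate 2 was left out.

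Of the 26 sets above 0.5 in HAP1, 2 were left out by the HEK293FT limit. The set of gID_08089 to gID_08092, at 1.98 in HAP1, and the set of gID_01081 to gID_01084, at 1.25, had HEK293FT changes of -0.38 and -0.55. In the latter, gID_01081 went from 670.4 and 648 at HAP1 day 0 to 2035 and 1997 at day 14, the highest signals of both day 14 libraries among targeting guides, while gID_01082 went from 353 and 234 to 117 and 220 in HEK293FT. The 3 included sets with the lowest HEK293FT values were gID_00905 to gID_00908 at -0.26, gID_13853 to gID_13856 at -0.25 and gID_09765 to gID_09768 at -0.22. The first of these lay within its SE of 0.24 from the limit. On the HAP1 side the limit cut through a dense range. The 3 sets just inside were gID_15753 to gID_15756 at 0.5004, gID_02505 to gID_02508 at 0.51 and gID_15865 to gID_15868 at 0.52, and the 3 just outside were gID_13313 to gID_13316 at 0.4993, gID_05145 to gID_05148 at 0.49 and gID_05469 to gID_05472 at 0.48. A further 40 sets lay above 0.4 and up to 0.5 with HEK293FT above its limit.

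The sets near the lower limit differed in how much their libraries agreed. The set of gID_15753 to gID_15756 was at 83.1 and 112 at HAP1 day 0 and at 166 and 113.5 at day 14. Of its 4 guides gID_15753 alone was above 0.5. Equal replicate numbers were not taken to mark pairs of libraries. The set differed by 0.99 between its replicate 1 libraries and by 0.0072 between its replicate 2 libraries. Without HAP1 day 14 replicate 1 its change was 0.23, without HAP1 day 0 replicate 1 it was 0.28, and without HAP1 day 14 replicate 2 it was 0.77. By contrast gID_02505 to gID_02508, at 62.8 and 62.4 and then 86.0 and 93.4, had an SE of 0.062. Its guides were at 1.07, 0.59, 0.26 and 0.12 in the order of their numbers. Other sets depended on 1 library in the same way: without HAP1 day 14 replicate 1, gID_03341 to gID_03344 went from 0.56 to 0.36, gID_08073 to gID_08076 from 0.72 to 0.41 and gID_10965 to gID_10968 from 0.58 to 0.30. In these 3 sets the day 14 replicate 1 library was the higher by far, at 210.5 against 158, 207 against 134 and 198 against 134, while day 0 lay between 91.5 and 135. The least abundant sets at day 0 were gID_15865 to gID_15868, with a mean signal of 61.2, gID_02505 to gID_02508 at 62.6 and gID_15009 to gID_15012 at 64.8, and all 3 were near the lower limit of change. In the last of these gID_15009 stood at 25.0 and 27.1 at day 0 and at 47.2 and 63.7 at day 14, a change of 1.07, while the other 3 guides were between 0.23 and 0.45.

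The remaining sets were gID_03929 to gID_03932 at 0.52, gID_13081 to gID_13084 at 0.54 and gID_15933 to gID_15936 at 0.54. Their HAP1 signals were 128 and 122, 69.2 and 76.7, and 91.1 and 103 at day 0. At day 14 they were 171 and 190.5, 114 and 99.4, and 149 and 134. Of these only gID_15933 to gID_15936 was higher in both HEK293FT day 14 libraries, at 122 and 119 against 110.2 and 111.5.

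Single guides showed how evenly the gain was carried. Of the 96 guides, 84 had both HAP1 day 14 libraries above both day 0 libraries, against 23.6% of all targeting guides. A HAP1 change above 0.5 was found for 69 of them (4.55% of all targeting guides), and a change above 1 for 22 (0.282% of all). These guides were chosen through their sets on the same contrast, so nothing is read from these counts beyond how the gain was divided. All 4 guides were above 0.5 in 7 sets, 3 guides in 10 sets, 2 guides in 4 sets and 1 guide in 3 sets. Over all 4174 sets these numbers were 9, 11, 66 and 559. The 3 sets with 1 guide above 0.5 were gID_03929 to gID_03932, gID_15009 to gID_15012 and gID_15753 to gID_15756. Of all 96 guides, gID_10968 alone was below 0, at -0.11. Its libraries disagreed, at 77.4 and 132 at day 0 and 149 and 59.5 at day 14. A high single guide was not enough to bring a set in, since 18 sets at or below 0.5 in HAP1 also held a guide above 1.

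The guide numbers carried an order in HAP1. In 21 of the 24 sets the HAP1 change fell from the first guide to the fourth without exception, and the first guide was the highest in 23, as it was in 93.7% of all sets. The median change was 1.03 at the first place, 0.79 at the second, 0.54 at the third and 0.37 at the fourth. The same order ran through the library, with 78.6% of all sets fully ordered and place medians of 0.26, 0.081, -0.038 and -0.16. The HEK293FT changes of the same guides followed it in 2 of the 24 sets and in 4.84% of all sets, with place medians of 0.078, 0.086, -0.076 and -0.013 over the 24. How guides were numbered and sets were formed is not documented. If numbers or sets were assigned with the HAP1 outcome known, the HAP1 set changes would carry that choice, and this was not tested.

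HEK293FT values of the 24 sets lay between -0.26 and 0.20, with a median of 0.0052, against -0.035 over all sets. Above 0 were 12 of the 24 sets, compared with 37.1% of all sets. Both day 14 libraries lay above both day 0 libraries in 5 sets (14.3% of all sets) and below both in 7 (32.4% of all sets). Among single guides 48 of 96 were above 0 in HEK293FT, where 43% of all targeting guides were. The day 14 libraries were both higher for 22 of the guides (17.3% of all) and both lower for 24 (27.2% of all). None of the 96 guides was above 0.5 in HEK293FT, as 0.628% of all targeting guides were, and 4 were below -0.5 (4.95% of all): gID_00906, gID_09768, gID_13853 and gID_12224. Since sets at or below -0.35 in HEK293FT were left out, the lower tail of these values was set by the rule. The 3 largest HAP1 changes went with HEK293FT values of -0.18, -0.22 and -0.25, and the next 5 with -0.018, 0.034, 0.20, 0.11 and -0.052. Each line has a table of its own, and whether both were normalised together is not given in the sources used here, so line and table cannot be told apart.

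At day 0, targeting sets stood lower against the non-targeting guides in HAP1 than in HEK293FT, with a median difference of -0.27 on the log2 scale over all sets. For the 24 sets the median difference was -0.16, and 20 of them were lower in HAP1, compared with 94.6% of all sets. The largest difference in the other direction of all sets, 0.36, was that of gID_02405 to gID_02408. The day 0 signal of the 24 sets in HAP1 ran from 61.2 to 575 with a median of 110.3, and the median of all sets was 105. The HAP1 day 0 values also enter the rule, where a low value raises the change.

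The rule was also applied to 1 day 0 and 1 day 14 library of each line, and the sets so chosen were read in the other HAP1 libraries. All 8 libraries had already entered the full rule. This reading is a description and not independent support, since the other libraries may have entered the forming of the sets, as set out above. When the rule was applied to the replicate 1 libraries alone it chose 116 sets, with a median change of 0.60 there, and these had a median of 0.12 between the replicate 2 libraries. It also chose 3 of the 250 non-targeting sets, and 0 of them in each of the other 3 readings that follow. Of the 116, 83 were above 0 (71.6%) and 12 above 0.5 (10.3%), compared with 51.9% and 1.01% of all sets in the same libraries. When the replicate 2 libraries chose, 41 sets were found, with a median of 0.31 in replicate 1. Above 0 were 35 of them (85.4%, against 56.9% of all sets) and above 0.5 were 14 (34.1%, against 2.92%). With the replicate numbers crossed between days, 38 and 35 sets were chosen and their medians in the other libraries were 0.43 and 0.47. There 37 of the 38 (97.4%) and all 35 were above 0, against 56.4% and 58.3% of all sets. Above 0.5 were 16 of the 38 (42.1%) and 16 of the 35 (45.7%), against 0.910% and 0.958% of all sets. In the order given, 20, 16, 19 and 20 of the chosen sets were also chosen by the rule on all libraries. In each of these 4 readings the median in the other libraries was above that of all sets, which lay between 0.0090 and 0.044, and below the median in the choosing libraries. No replication is read from these medians. Each reading rests on 1 library per day, so these values have no error of their own.

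The sets also differed in how far they depended on 1 library. With each of the 8 libraries left out in turn, 13 of the 24 sets met the rule every time: the 10 with the largest changes, and gID_01445 to gID_01448, gID_02405 to gID_02408 and gID_12169 to gID_12172. In 12 of the 24 sets, every pairing of a HAP1 day 14 library with a day 0 library gave a change above 0.5. In the whole library 14 sets did so. The HAP1 change of a set is the mean of these pairings, so only sets with a change above 0.5 could. The count for the whole library is therefore no background for the 24 sets. A change far above 0.5 also meets the rule more easily with a library left out, so both counts partly follow from the choice of sets.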

How the data were processed

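Guide abundance was measured by amplicon sequencing of genomic DNA in 8 RfxCas13d libraries, 2 per cell line and day, and each sample's group was taken from its title. The deposited values are signal that the authors had already normalised; the method is not given in the sources used here. No common step was found, so that reads could not be recovered and the depth is unknown. Per the submitters' processing notes, the tools were Bowtie 1.1.2 and cutadapt 1.13 and the build was GRCh38, with no role given. Rows without a guide ID were left out (1 in the HAP1 table, 120 in the HEK293FT table), and 17 and 16 repeated IDs were averaged; none of them is among the 96 guides described. Log2 values were scaled by each library's trimmed mean over the non-targeting guides (30% removed from each side), without a pseudocount or a filter on low values, and averaged over guides and libraries (Python 3.11.15, numpy 2.4.6, pandas 2.3.3, scipy 1.17.1). The SE of a set change comes from the variances of its set mean between the 2 libraries of each day.

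The sets were chosen on the contrasts they are described by, so no test was made. The members and the sets were chosen with earlier results of these data known. Sets named singly were those with the 10 largest HAP1 changes, those next to each threshold, and the extremes of HEK293FT change, of spread among guides and of day 0 level, as well as runs of neighbouring sets and the guide with the largest change. Others named were chosen after their values were seen, as was the border between the abundance classes, at a signal of 250. The calculation was tested on simulated data. The deviations of equal replicate numbers at both days ran in opposite directions across targeting guides (r = -0.445 over 16691 guides in HAP1, r = -0.321 over 16572 in HEK293FT). Over the 24 sets r was -0.744 in HAP1 and -0.283 in HEK293FT. The numbers were therefore not taken to pair libraries, and the SE treats libraries as unpaired. The alternatives were other scalings, pseudocounts, a minimum signal, medians over guides, moved set borders, a replicate block and each library left out. The tables of the other 2 screens hold other libraries and were not used here.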

Additional observations from a re-analysis of the deposited data

Results flagged for a closer look

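In 7 of the 24 sets, both HAP1 day 14 libraries lay above both day 0 libraries while both HEK293FT day 14 libraries lay below theirs. The difference between the lines was not tested, and the HAP1 direction was fixed by the choice of sets. The HEK293FT changes were -0.18 for gID_12221 to gID_12224, -0.22 for gID_09765 to gID_09768, -0.25 for gID_13853 to gID_13856 and -0.15 for gID_12169 to gID_12172. They were smaller for gID_15009 to gID_15012 at -0.08, gID_01449 to gID_01452 at -0.05 and gID_13081 to gID_13084 at -0.03. The median HEK293FT change of all sets was -0.035, so the smallest of these lay near the middle of the library. The 3 sets with the largest HAP1 changes are all in this group. The HEK293FT separation downwards was no more frequent here than elsewhere, at 29.2% of the 24 sets and 32.4% of all sets.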

How the results depend on the processing

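Single sets gave 240 HAP1 changes under another scaling, a pseudocount or a left-out HAP1 library. They ran from 0.23 to 1.47, and 28 were at or below 0.5. That all were above 0 was largely fixed in advance. The sets were chosen for changes above 0.5 in these libraries, and another scaling shifts every set by the same amount. The number of sets meeting the rule was 12 with set borders moved by 2, and from 21 to 53 with a library left out. It was 36 with total signal as the scale, 18 with a pseudocount of 10, of which 17 were among the 24, and between 22 and 25 under the other scalings, a pseudocount of 1, a minimum signal of 50, medians over guides and complete sets. With a replicate block, and with the numbers crossed in it, the number was 24 and the medians 0.66 and 0.0052, since averaging over balanced libraries gives the same values. The median HAP1 change of the 24 sets ranged from 0.59 to 0.78 with a library left out. Their median HEK293FT change ranged from -0.040 to 0.0052 with a library left out. It was 0.034 with a trimmed mean of all guides as the scale and 0.077 with total signal. With a minimum signal of 50 it was 0.028, over those of the 24 sets that kept at least 3 guides. The sign of the median HEK293FT change is therefore not settled. Where 1 library per day chose the sets, the median HAP1 change in the other libraries was 0.12 when replicate 1 chose and 0.31 when replicate 2 chose. With crossed numbers it was 0.43 and 0.47. As set out above, these readings are a description and not independent support. The cause of the shifts under these alternatives was not tested. Unknown depth limits what can be said of the least abundant sets.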
